A study of Mus musculus with 33 samples.

Results

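The 4 myogenic regulatory factor genes Myod1, Myog, Myf5 and Myf6 were followed through every peak list of a chromatin immunoprecipitation sequencing (ChIP-seq) study of C2C12 cells. Their members were all peaks that overlapped 3 windows of mouse build mm9: chromosome 7 from 53605000 to 53640000 for Myod1, chromosome 1 from 136180000 to 136195000 for Myog, and chromosome 10 from 106910000 to 107070000 for the neighbouring genes Myf5 and Myf6. The windows were set by position and not by measured values. They held 98 of the 493022 nuclear peaks in the 23 lists. Of these 98 peaks, 70 came from the 9 lists that stand for a protein in a state and 28 from lists of single replicates.

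C2C12 is an established mouse myoblast line. Growing myoblasts (MB) were kept in 10% fetal bovine serum, and myotubes (MT) were collected after 4 days (96 h) in 2% horse serum. In myoblasts there were lists for ING1 (2 replicates), Menin (2), MLL1 (2), Wdr5 (3), LSD1 and MLL3. In myotubes there were lists for ING1 (3 replicates), Sin3A (2) and LSD1. A pooled list is the merged list that the replicates' labels name as theirs; how it was merged is not given in the sources used here. LSD1 (in each state) and MLL3 had 1 list with no replicate check. ING1 was precipitated through a Flag tag in puromycin-selected cells that carried the tagged protein from a viral vector (pBabe-puro), so its peaks are those of an ectopic protein. For the other proteins the labels name an antibody to the protein and no genotype. The chromatin was sonicated. Sin3A was assigned to myotubes from its sample labels, although the series text speaks of myoblasts, and MLL1 was assigned from its titles and antibody, although its source label reads Menin. No label ties replicates to separate cultures, so spread between lists may be technical.

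The 4 genes encode basic helix-loop-helix transcription factors that bind E-boxes and set the skeletal muscle programme. Myf5 and Myod1 commit cells to the muscle lineage and are active in growing myoblasts, Myog (myogenin) is switched on when myoblasts leave the cell cycle and differentiate, and Myf6 (MRF4) acts mainly in maturing fibres. Among the mapped proteins, MLL1 and MLL3 place methyl groups on lysine 4 of histone H3 (H3K4), Menin is a subunit that brings MLL1 complexes to chromatin, and Wdr5 is a core subunit of all MLL complexes. LSD1 removes methyl groups from mono- and dimethylated H3K4. ING1 is a reader of trimethylated H3K4 in Sin3 deacetylase complexes, whose scaffold is Sin3A.

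Every replicate list was shorter than its pooled list, and 10 of the 14 had no peak in any window. The 4 that had one were the Menin lists with 12 and 8 peaks, MLL1 replicate 1 with 5, and Sin3A replicate 1 with 3. Of the 45 pooled peaks in the windows, 12 met a peak of at least 1 replicate list and 33 met none. The share of all pooled peaks that meet a replicate peak was not determined, so these counts do not set the windows apart. Replicate lists ran from 126 peaks for ING1 myotube replicate 3 to 23164 for Menin replicate 1. They hold no read counts, so the depth behind them is unknown, and a missing peak cannot be told apart from a shallow library. They hold no expression values either, so the labelled cell states were not checked against marker genes. Positions relative to the gene starts were not determined, because no mm9 annotation was used here.

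Myod1 carried a compact group of peaks that joined both states. A stretch of 1547 bp (chr7:53631724-53633270), the extent of its wider Menin peak, held peaks of 5 lists: ING1, Menin and Wdr5 of myoblasts and LSD1 and Sin3A of myotubes. Menin covered all of it, Sin3A 52.9%, LSD1 of myotubes 45.05%, Wdr5 37.0% and ING1 of myoblasts 23.3%. How often stretches elsewhere in the genome hold 5 lists was not determined. No MLL1 peak and no LSD1 peak of myoblasts was listed anywhere in the window. A second stretch, 192 bp further on (chr7:53633463-53634086), paired a Menin peak with an ING1 peak of myotubes. The next by number of lists and width was an MLL3 peak of 1832 bp (chr7:53608176-53610007) that lay 21.7 kb from the main stretch.

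ING1, the H3K4 reader, was listed at Myod1 in both states but not at the same bases. The myoblast peak spanned 360 bp (chr7:53632675-53633034). The myotube list had a peak of 487 bp before it (chr7:53630602-53631088) and one of 581 bp after it (chr7:53633463-53634043). The gap between the myoblast peak and the nearer myotube peak was 428 bp. Pooled ING1 peaks thus covered 1.03% of the window in myoblasts and 3.05% in myotubes. None of the 2 myoblast and 3 myotube replicate lists had an ING1 peak here, so all replicate values were 0. The exact two-sided permutation test then gives p = 1 whatever the groups (adjusted p = 1 over the 3 windows) and says nothing on a difference. The 3 ING1 peaks were narrow, with widths that ranked 7695 of 8196 in the myoblast list, and 7420 and 6213 of 9698 in the myotube list. A tile of 35 kb had ING1 in both states in 6.97% of cases genome-wide, 5123 tiles against 6342 with ING1 in myoblasts. The share of all ING1 peaks that overlap between the states was not determined. The lack of overlap is therefore not shown to be particular to Myod1.

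LSD1, the demethylase, had no Myod1 peak in myoblasts and 2 in myotubes. The first spanned 1076 bp (chr7:53613795-53614870) and lay alone, 16.9 kb before the main stretch. The second spanned 697 bp (chr7:53632141-53632837), all of it inside the Menin peak, and shared 445 bp with Wdr5 and 163 bp with the ING1 peak of myoblasts. In myoblasts the nearest LSD1 peak outside the window was 325.4 kb away, and in myotubes 531.3 kb. Coverage was 0% against 5.07% of the window, with 1 list per state and therefore no test. Tiles of 35 kb with LSD1 in myotubes and not in myoblasts made up 6.5% of all. The myotube list was 16504 peaks long and the myoblast list 4442. When it was shortened to its widest 4442 peaks, 1 of the 2 Myod1 peaks was left.

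Sin3A, the deacetylase scaffold, had 2 myotube peaks at Myod1. The wider one, 542 bp (chr7:53631905-53632446), had identical ends in replicate 1 and no counterpart in replicate 2. It shared 433 bp with Wdr5 and 306 bp with LSD1. The other, 277 bp (chr7:53632585-53632861), met no replicate peak and shared 187 bp with the ING1 peak of myoblasts. Both lay entirely within the Menin peak, and neither touched an ING1 peak of myotubes, the nearest being 601 bp away.

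Menin and Wdr5 were listed at the Myod1 core in the pooled lists, and no replicate list of either had a peak in the window. The widest Wdr5 peak, 572 bp (chr7:53632014-53632585), lay wholly inside the Menin peak of 1547 bp. The other Wdr5 peak lay 12.9 kb before the main stretch, between the LSD1 peak and the core. MLL3 had 2 peaks, both at the far end of the window and apart from every other list. In the plot of Myod1 peaks the myoblast and myotube bars stack at the core while MLL3, Wdr5 and LSD1 each have a peak of their own in the left part.

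**Figure D1:**
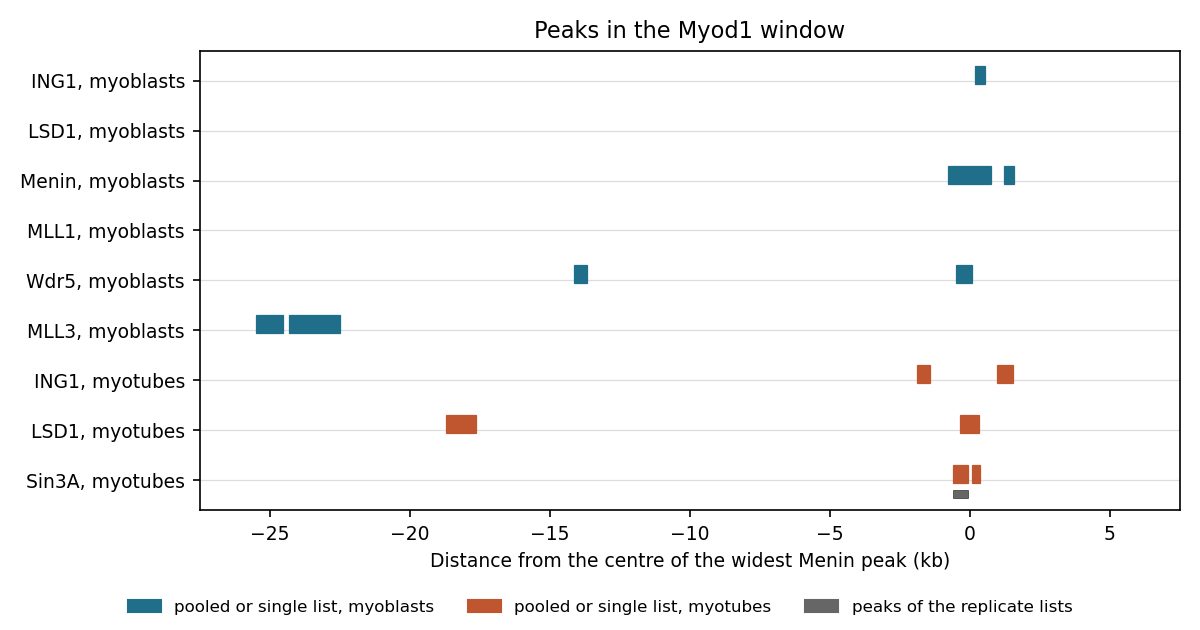
Peaks in the Myod1 window by list, with distance in kb from the centre of the widest Menin peak on the x axis. Wide bars are peaks of the pooled or single lists (blue myoblasts, orange myotubes) and thin grey bars are peaks of replicate lists; the only replicate bar belongs to Sin3A, and MLL3 lies more than 20 kb from the other core peaks.

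A 35 kb window often holds a peak when a list is long, which sets the scale for these counts. Of all non-overlapping tiles of 35 kb on chromosomes 1 to 19 and X, 8.63% had an ING1 peak of myoblasts, 9.74% one of myotubes, 4.91% and 9.79% an LSD1 peak of myoblasts and myotubes, and 14.2% a Sin3A peak. The shares were 9.26% for MLL1, 30% for Menin, 44.9% for Wdr5 and 73.1% for MLL3. On chromosome 7 itself all 9 were lower, with 4.17% for MLL1, 20.2% for Menin, 26.8% for Wdr5, 48.1% for MLL3, 3.33% and 6.4% for LSD1 of myoblasts and myotubes, 8.09% and 9.59% for ING1, and 11.6% for Sin3A. Coverage of the Myod1 window was reached by 2.47% of all tiles for LSD1 of myotubes, 3.79% for ING1 of myotubes, 14.1% for Menin, 21.5% for Wdr5 and 27.4% for MLL3. For Sin3A the share was 7.55% and for ING1 of myoblasts 8.18%. Among the tiles of chromosome 7 these shares were 1.29% for LSD1 of myotubes, 3.23% for ING1 of myotubes, 9.73% for Menin, 12.5% for Wdr5, 10.7% for MLL3, 6.26% for Sin3A and 7.38% for ING1 of myoblasts. For ING1 of myoblasts nearly every tile with a peak was covered at least as much as this window.

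The Myf5-Myf6 window held a domain of Menin and MLL1 in myoblasts near one end and MLL3 peaks near the other. Where the genes lie among these peaks was not determined. They are adjacent protein-coding genes between Lin7a and Ptprq in the RefSeq gene order. The first 40 kb of the window held 20350 of the 23357 bases under Menin (87.1%) and 8854 of the 9082 under MLL1 (97.5%). No LSD1 peak was listed in either state and no ING1 peak in myotubes over the whole 160 kb, which is the common state: 17.1%, 27.1% and 28.8% of tiles of that size had an LSD1 peak of myoblasts, an LSD1 peak of myotubes and an ING1 peak of myotubes. MLL3 went to the other end, with 76.9% of its bases in the last 40 kb.

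The widest stretch spanned 11412 bp (chr10:106920154-106931565) and was 98.9% covered by Menin, 66.8% by MLL1, 35.02% by Wdr5, 6.51% by ING1 of myoblasts and 3.98% by MLL3. The next, of 6897 bp (chr10:106934058-106940954), was 98.7% covered by Menin, 21.8% by MLL3, 17.8% by MLL1, 9.76% by Wdr5 and 8.45% by Sin3A of myotubes. Each held 5 lists, more than any other stretch of the window. The next in that ranking, at 1138 bp (chr10:107020258-107021395), held only Menin and MLL3. In all, 6 of 28 stretches had 2 or more lists, while 10 were MLL3 alone. The same shares over the whole genome were not determined, so these counts do not set the window apart.

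Menin, the targeting subunit, formed its widest peak of the 3 loci here, 7233 bp (chr10:106924333-106931565). That width ranked 173 of the 70050 Menin peaks. A neighbour of 6810 bp ranked 217, and only 682 Menin peaks (0.974%) reached 5 kb. Both replicates carried the domain, with 12 and 8 peaks over 9.90% and 8.82% of the window (mean 9.36% ± 0.760 SD, n = 2). They shared 13213 bp, which was 83.5% of the bases of replicate 1 and 93.6% of those of replicate 2. Where the pooled list had 1 long peak, the replicates had runs of shorter ones, the longest 3724 bp in replicate 1 and 3613 bp in replicate 2. Among all 160 kb tiles, 0.660% in replicate 1, 0.455% in replicate 2 and 3.75% in the pooled list were covered as much as this window.

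MLL1, the methyltransferase that Menin recruits, had 8 pooled peaks, and 7 of them overlapped Menin. The share of all MLL1 peaks that overlap Menin was not determined, so the overlap is not shown to be particular to this locus. The widest measured 3238 bp (chr10:106921684-106924921) and ranked 66 of 8892. It was followed along the same Menin domain by peaks of 645 bp (chr10:106925724-106926368), 452 bp (chr10:106926543-106926994), 516 bp (chr10:106927242-106927757) and 2307 bp (chr10:106928362-106930668), and preceded by one of 470 bp (chr10:106920972-106921441). A peak of 1226 bp (chr10:106935165-106936390) lay in the second stretch. The last, 228 bp (chr10:106984170-106984397), began 12 bp past a Menin peak without touching it.

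Support for MLL1 came from a single library. Replicate 1 had 5 peaks over 3.39% of the window and met 3 of the 8 pooled peaks, those of 3238, 2307 and 1226 bp. Replicate 2, which had 466 peaks in all, had none (mean 1.70% ± 2.40 SD, n = 2). Of the bases under MLL1 replicate 1 in the window, 94.5% lay under Menin replicate 1 and 98.4% under Menin replicate 2. The same shares over the whole genome were not determined. Pooled MLL1 covered 5.68% of the window, and 25 of the 16059 tiles of 160 kb (0.156%) reached that level, as did 2 of the 793 on chromosome 10 (0.252%). For pooled Menin these shares were 3.75% and 5.67%.

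Wdr5, the shared core subunit, was spread more evenly than Menin or MLL1. It had 11 pooled peaks, of which 4 lay in the first 40 kb with 55.6% of its bases. The widest, 1833 bp (chr10:106922394-106924226), was wholly covered by the widest MLL1 peak. None of the 3 Wdr5 replicate lists had a peak in the window. Of the 2928 Wdr5 peaks of at least that width, 2397 (81.9%) met a replicate peak, and this peak was among those that did not.

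The only ING1 peak of the window was in myoblasts, 743 bp long (chr10:106922777-106923519). It lay entirely within Menin, MLL1 and Wdr5 peaks, the only place in the 3 windows where these 4 proteins overlapped. No ING1 replicate list had a peak here in either state, so replicate values were 0 against 0 (exact permutation p = 1, adjusted p = 1, the only value possible). Tiles of 160 kb with ING1 in myoblasts and not in myotubes made up 3.52% of all. Sin3A of myotubes had 1 peak, 583 bp (chr10:106935958-106936540), which Sin3A replicate 1 repeated over 524 bp and replicate 2 did not list. It lay inside the Menin peak of myoblasts and shared 433 bp with MLL1.

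MLL3, a writer of monomethylated H3K4 at enhancers, lay mostly at the other end of the window. Of its 15 peaks, 2 lay in the first 40 kb and 10 in the last. The widest, 3596 bp (chr10:107061898-107065493), ranked 1076 of 218204 and met no other list. In the last 20 kb part MLL3 covered 51.8%, Wdr5 2.02% and Menin and MLL1 nothing. Of the 17105 bases under MLL3, 2162 (12.6%) were shared with Menin, 679 (3.97%) with Wdr5 and 398 (2.33%) with MLL1. Menin, Wdr5 and MLL1 covered 14.6%, 5.25% and 5.68% of the whole window, so the share with Menin was near that level. The last MLL3 peak crossed the edge of the window and was counted up to it.

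**Figure D2:**
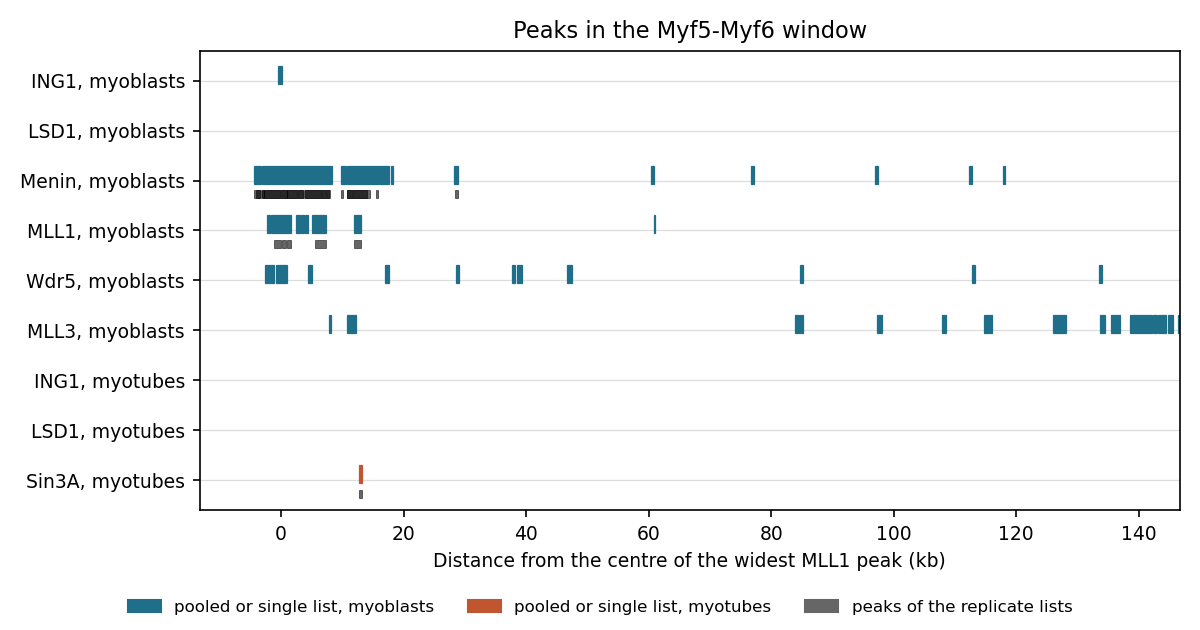
Peaks in the Myf5-Myf6 window by list, with distance in kb from the centre of the widest MLL1 peak. Wide bars are pooled or single lists and thin grey bars replicate lists. Menin and MLL1 lie mostly at the left end, Menin with peaks of both replicates and MLL1 with peaks of replicate 1 only. MLL3 lies mostly at the right end, and LSD1 and myotube ING1 have no bar.

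**Figure D3:**
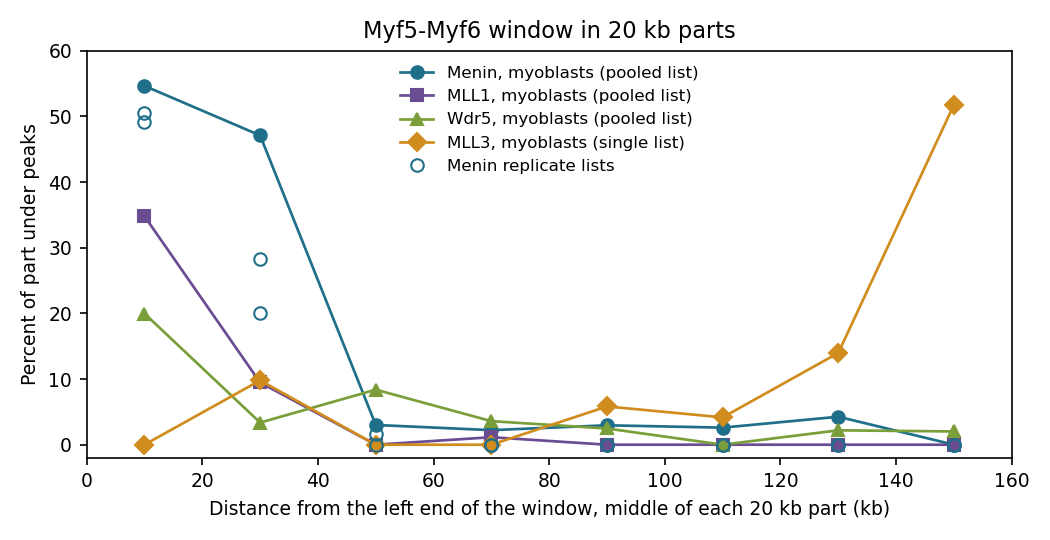
Percent of each 20 kb part of the Myf5-Myf6 window under peaks, against the position of the part in kb from the left end. Filled symbols are the pooled or single lists of myoblasts and open circles the Menin replicate lists; Menin goes from 54.6% in the first part to 0% in the last, and MLL3 from 0% to 51.8%.

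Outside the Myf5-Myf6 window the next LSD1 and ING1 peaks were distant in both states, although ING1 of myoblasts had a peak inside it. The nearest LSD1 peak outside it was 528.5 kb away in myoblasts and 529.5 kb in myotubes, and the nearest ING1 peak 528.1 kb and 529.4 kb. For Menin it was 25.02 kb away in the pooled list, 25.5 kb in replicate 1 and 528.2 kb in replicate 2. Such distances also occurred in Wdr5 replicates 2 and 3 (528.7 and 528.3 kb) and Sin3A replicate 1 (528.7 kb). Of all 160 kb tiles, other lists had a peak in these shares: 26.9% for ING1 of myoblasts, 38.7% for Sin3A and 29.7% for MLL1. For Menin the share was 55.6%, for Wdr5 77% and for MLL3 93.3%. On chromosome 10 itself the shares were 41.5% for MLL1, 54% for Sin3A, 72.5% for Menin, 93.4% for Wdr5 and 98.4% for MLL3. For ING1 of myoblasts the share there was 25%. Coverage of the window was reached by 7.07% of all tiles for Wdr5, 21.3% for MLL3, 31.4% for Sin3A and 19.6% for ING1 of myoblasts. Among the tiles of chromosome 10 it was reached by 12.4%, 21.3%, 41.2% and 18.9%. Tiles with Menin, MLL1, Wdr5 and MLL3 and without LSD1 in either state, a combination picked after the values were seen, made up 8.28%.

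At Myog every myoblast list but MLL3 was empty, while all 3 myotube lists had a peak. Only ING1 and LSD1 were mapped in both states, so the other proteins have no contrast between states. The myotube peaks of ING1, Sin3A and LSD1 met in 1 stretch of 2291 bp (chr1:136186605-136188895), which ING1 covered to 91.8%, Sin3A to 64.9% and LSD1 to 22.0%. No ING1, LSD1, Menin, MLL1 or Wdr5 peak of myoblasts lay in the window. The nearest outside it were Wdr5 at 7.59 kb, Menin at 50.96 kb, ING1 at 63.4 kb, MLL1 at 116.8 kb and LSD1 at 204.8 kb.

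The promoter of Myog is shown as the regulatory sequence of the gene that is switched on in differentiation. In the Myog window, as in the Myod1 window, ING1, Sin3A and LSD1 of myotubes each had a peak. It gives the 250 bases before the annotated start (RefSeq, GRCm38.p6, chr1:134289754-134290003, plus strand), 5′ to 3′, with E-boxes in capitals. E-boxes were searched as CANNTG, a motif that reads the same on both strands.
Myog: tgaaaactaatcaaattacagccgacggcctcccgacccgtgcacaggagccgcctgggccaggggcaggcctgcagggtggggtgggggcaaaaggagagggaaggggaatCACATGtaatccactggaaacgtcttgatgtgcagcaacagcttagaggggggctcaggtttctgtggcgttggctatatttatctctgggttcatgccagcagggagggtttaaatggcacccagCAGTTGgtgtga
The 2 E-boxes were CACATG, ending 133 bases before the start, and CAGTTG, ending 7 bases before it. Of 32851 RefSeq promoters cut the same way, 66.2% held at least 1 E-box and 31.8% at least 2. The Myf5 promoter held none in its 250 bases. Of the 4 genes, Myog and Myf5 had a sequence in the table. This sequence is on another build than the peaks, and whether it lies under them was not determined.

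ING1 at Myog was 1 peak of 2102 bp (chr1:136186794-136188895) in the pooled myotube list and none in the pooled myoblast list. It covered 14.0% of the window, and 0.235% of all 15 kb tiles were covered as much by ING1 of myotubes. Its width ranked 144 of 9698 peaks. None of the 3 myotube replicate lists had a peak there, nor had the 2 myoblast lists, so replicate values were 0 against 0 (exact permutation p = 1, adjusted p = 1, the only value possible). Of the 144 pooled myotube peaks at least as wide, 129 (89.6%) met a replicate peak, and the Myog peak was among the 15 that did not. The nearest replicate peak outside the window was 62.7 kb away, in replicate 2.

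Sin3A at Myog had a peak in 1 of its 2 replicate lists. The wider of its 2 peaks measured 1487 bp (chr1:136186605-136188091), and replicate 1 had a peak of 1206 bp ending at the same base. Replicate 2, with 430 peaks in all, had none (mean 4.02% ± 5.68 SD of the window, n = 2). The peak shared 1298 bp with ING1, which was 87.3% of the Sin3A peak and 61.8% of the ING1 peak. The second Sin3A peak, 514 bp (chr1:136189897-136190410), stood alone, 1001 bp past the stretch, and met no replicate peak. Pooled Sin3A covered 13.3% of the window, and 0.508% of all 15 kb tiles were covered as much.

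LSD1 at Myog was a myotube peak of 503 bp (chr1:136188114-136188616). It lay wholly inside the ING1 peak and began 22 bp past the end of the Sin3A peak, so ING1 spanned both while Sin3A and LSD1 did not overlap. Coverage was 0% in myoblasts and 3.35% in myotubes, with no replicates to test. The peak ranked 11751 of 16504 by width. It was not among the widest 4442 peaks, the number that the myoblast list holds.

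MLL3, the only myoblast list with peaks at Myog, had 5, from 370 to 688 bp wide. They flanked the myotube stretch without touching it. The nearest, 611 bp (chr1:136188962-136189572), began 66 bp past the ING1 peak and lay between that peak and the second Sin3A peak. The widest, 688 bp (chr1:136179768-136180455), crossed the edge of the window, as did the last. MLL3 covered 13.0% of the window, and 16.9% of tiles reached that level. The plot of Myog peaks shows 2 MLL3 bars before the myotube stretch and 3 after it.

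**Figure D4:**
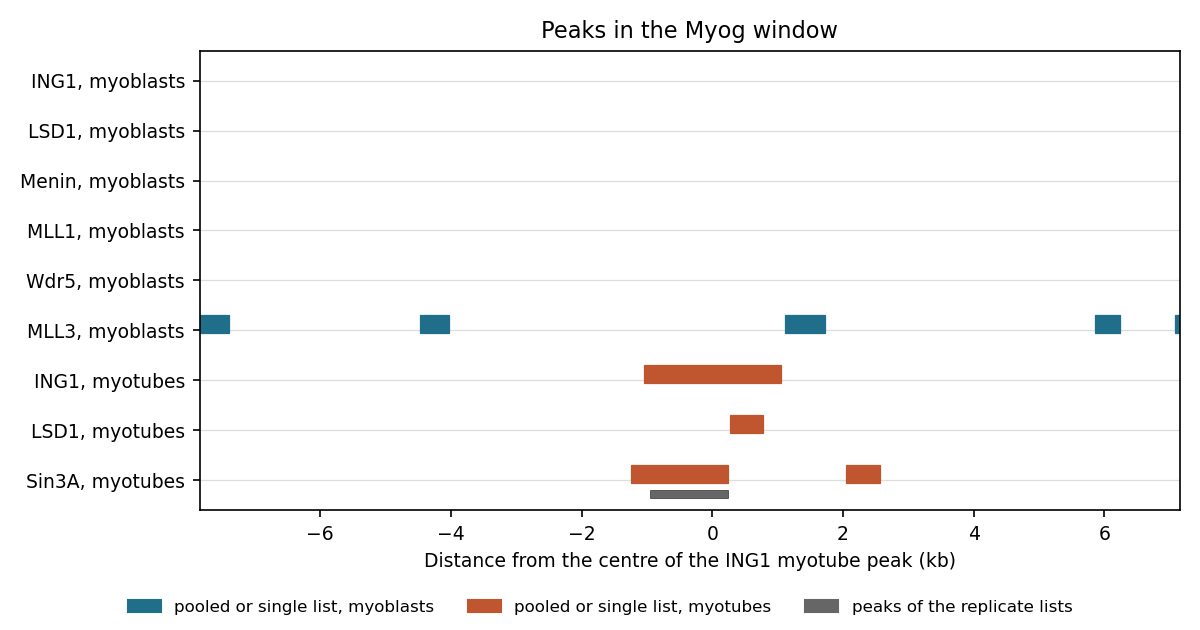
Peaks in the Myog window by list, with distance in kb from the centre of the ING1 myotube peak. Wide bars are pooled or single lists (blue myoblasts, orange myotubes) and the thin grey bar is Sin3A replicate 1; MLL3 is the only myoblast row with bars, and none of them overlaps a myotube bar.

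At 15 kb, ING1 had a peak in 4.11% of tiles in myoblasts and 4.71% in myotubes, LSD1 in 2.26% and 5.42%, Sin3A in 7.05%, MLL1 in 4.41%, Menin in 19.3%, Wdr5 in 26.6% and MLL3 in 55.3%. All 3 myotube lists had a peak in 2.28% of tiles, 3901 in number. The Myog arrangement, with the 3 myotube lists and without ING1, LSD1, Menin, MLL1 and Wdr5 in myoblasts, occurred in 17 tiles (0.00992%). That combination was chosen after the Myog values were seen, and it rests on pooled and single lists, so it is a description. The part that differing list lengths played in it was not tested.

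Across the windows, pooled Menin and Wdr5 ordered the loci alike in myoblasts and MLL3 did not. Menin covered 14.6% of the Myf5-Myf6 window, 5.46% of the Myod1 window and none of the Myog window. Wdr5 covered 5.25%, 2.96% and 0%. MLL1 covered 5.68% of the Myf5-Myf6 window and neither of the others. MLL3 was spread the most evenly, at 13.0% for Myog, 10.7% for Myf5-Myf6 and 7.97% for Myod1. Pooled ING1 of myoblasts had an order of its own, with 1.03% for Myod1, 0.464% for Myf5-Myf6 and 0% for Myog. In the pooled myotube lists the Menin order was reversed for ING1, with 14.0% for Myog, 3.05% for Myod1 and 0% for Myf5-Myf6. It was also reversed for Sin3A, with 13.3%, 2.34% and 0.364%. Menin was mapped in myoblasts only and Sin3A in myotubes only, so protein and state cannot be told apart here. The Myog, Myod1 and Myf5-Myf6 windows span 15, 35 and 160 kb, and the 14.0% is 1 peak of 2102 bp. Every ING1 and Wdr5 replicate list was at 0% in each window, and both Menin replicate lists were at 0% for Myod1 and Myog. The order of the pooled lists thus has replicate support only for Menin at Myf5-Myf6. Over the tiles of chromosomes 10, 7 and 1, pooled Menin covered 3.42%, 1.56% and 2.45% on average. For pooled Wdr5 these means were 2.60%, 0.982% and 1.54%. Their part in the order was not tested. LSD1 of myotubes had another order, with 3.35% for Myog, 5.07% for Myod1 and 0% for Myf5-Myf6.

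The windows could not be told apart by a test over proteins, because most differences were 0. With replicate lists averaged where there were any, the 6 myoblast proteins gave a mean of 1.33% for Myod1, 2.16% for Myog and 3.62% for Myf5-Myf6. Exact two-sided sign-flip permutation tests over the 6 proteins gave p = 1 for Myod1 minus Myog (−0.831 ± 2.04 SD), p = 0.25 for Myod1 minus Myf5-Myf6 (−2.30 ± 3.64) and p = 0.75 for Myog minus Myf5-Myf6 (−1.46 ± 4.07), or 1, 0.75 and 1 after adjustment over these 3 pairs. The 6 proteins are not replicates of each other. Only 1 difference was not 0 in the first pair and 3 in each of the others, so the smallest possible p was 1, 0.25 and 0.25, and these tests say nothing on whether the windows differ. In the replicate lists only Menin and MLL1 had any myoblast peak, in the Myf5-Myf6 window, and the sign of the Myod1 minus Myog difference came from MLL3 alone.

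**Figure D5:**
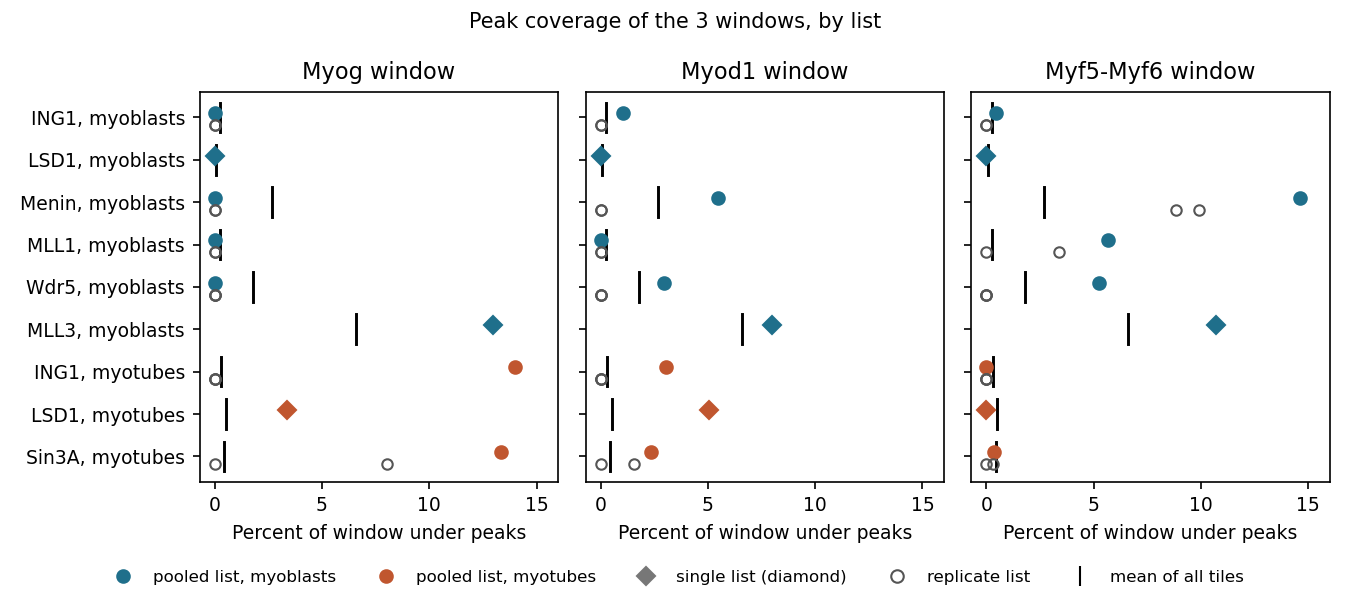
Percent of each window under peaks for the 9 protein and state combinations. Filled circles are pooled lists, diamonds single lists and open circles replicate lists. Black ticks are the mean of the pooled or single list over all tiles of the window's length. Both Menin replicates are above the tick of the pooled list at Myf5-Myf6, and their own tile means were 0.868% and 0.607%. ING1 and Sin3A of myotubes reach 14.0% and 13.3% at Myog, where the ING1 replicates are at 0%.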

How the data were processed

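The authors deposited peak boundaries (chromosome, left and right end in base pairs, per the file headers) with no height, fold or significance. Per the submitters' processing notes, Bowtie 0.12.9, SAMtools 0.1.19 and bedtools 2.17.0 were among the tools, with mm9 and NCBIM37 as builds. The role of each, the peak caller and its threshold: not given in the sources used here. There were 14 replicate lists, 6 pooled and 3 single lists. The 10 input and 6 RNA samples were not analysed here.

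Coordinates are printed 1-based, taking each deposited left end as 0-based. All are mm9 except those of the RefSeq sequence. Mitochondrial peaks were left out. Coverage is the share of a window's bases under peaks. Peaks overlapped when they shared at least 1 bp, and overlapping peaks of the 9 pooled and single lists were joined into stretches. Tiles ran from the first to the last peak of each chromosome. Named with coordinates were the 3 stretches per window with most lists (ties by width), all pooled ING1, MLL1, LSD1 and Sin3A peaks and the widest Menin, Wdr5 and MLL3 peaks; other peaks were singled out after their values were seen. The windows, tests and lists were chosen with earlier results of these data known. Tests were exact permutations over lists or proteins, adjusted by Benjamini and Hochberg (Python 3.11.15). The functions were tested on simulated data. A planned description of other pathway genes needs an mm9 annotation and was not made.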

Additional observations from a re-analysis of the deposited data

How the results depend on the processing

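Of 108 alternative values, 37 stayed at a difference of 0 against 0 (33 of ING1, 4 of LSD1) and say nothing on stability. Another 41 were tests between windows that kept their direction, with zeros that limit their p. Many of these could not move: leaving out an ING1 or Wdr5 replicate list, which held no peak in any window, changed no difference. For Myod1 minus Myog, no replicate list left out changed it. A further 12 were values with no test that counted as unchanged. Of these, LSD1 in peaks or bases per Mb kept only its sign. Stretches of 2 or more lists at Myf5-Myf6 went from 6 to 8 with peaks within 500 bp and to 4 with unions of replicate lists. Using pooled in place of replicate lists, the ING1 difference (myotubes minus myoblasts) went from 0 to 2.02 percentage points at Myod1, 14.0 at Myog and −0.464 at Myf5-Myf6, with no test. The Myod1 minus Myog difference of myoblasts turned to 0.744 with pooled lists, 0.822 with the wider 50% of each list and 0.0626 as a ratio to the own chromosome, and Myog minus Myf5-Myf6 to 0.269 in peaks per 10 kb. The LSD1 difference at Myod1 was 3.07 with the shortened myotube list, and at Myog 0 with that list and with the wider 50%. Stretches of 2 or more lists went from 2 to 1 at Myod1 with peaks within 500 bp or unions of replicate lists, and from 1 to 0 at Myog with unions. With a replicate block the ING1 difference was 0 in each window, and no label says what a number shares. Deviations of same-numbered lists correlated at −0.0235 and 0.0238. The 2 myoblast lists deviate from their mean in mirror image, so these are not 2 independent checks. In alternatives added after the data were seen, the member peaks went from 13 to 5 at Myod1, 9 to 3 at Myog and 48 to 27 at Myf5-Myf6 with the wider 50%, and to 5, 7 and 25 when pooled peaks had to meet a replicate list. Without MLL1 replicate 1 or Sin3A replicate 1, no replicate list of those proteins had a peak in the windows. Depth is unknown.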
